A study of Homo sapiens with 8 samples.

Results

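Collagen chain genes were read by 73 probe sets, which stand for 32 genes, on 8 Affymetrix arrays of human rhabdomyosarcoma cells. A probe set is a group of short probes for one transcript region. The members were all probe sets whose single annotated symbol is a collagen alpha chain, COL followed by the type number, A and the chain number, and they were taken from 22215 probe sets that are not controls. Arrays were made from SJRH30, a human cell line derived from a single rhabdomyosarcoma of the alveolar kind. One group, 0 h, was collected before hypoxia began. The other groups had spent 6, 12 or 24 h in a chamber at 1% oxygen. All groups were grown in the same serum-containing medium, each time had 2 arrays labelled as biological replicates, and the study asked how expression moves over the time in hypoxia. Time-matched cells in normal oxygen were not analysed here, and hours in culture and hours in hypoxia cannot be told apart. The labels do not say how the replicates were grown, so the p-values measure the spread between these arrays.

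Collagens are secreted proteins of the extracellular matrix in which 3 alpha chains wind into a triple helix. Fibrillar collagens build the banded fibrils of connective tissue, with types I, II and III as the bulk and types V and XI as minor chains that nucleate fibrils and limit their width. Type IV forms the sheet of basement membranes, and the remaining types decorate fibrils, link them to cells, or form beaded filaments and small networks. Making a collagen needs prolyl and lysyl hydroxylases in the endoplasmic reticulum, which use oxygen as a substrate and some of which are known targets of hypoxia-inducible factors.

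Promoter sequences are shown for 3 stretches, which belong to 4 members on which the results below turn. COL5A1 and COL15A1 had the largest called changes at 24 h in the fibrillar and the other class among probe sets that are not dim, and COL4A1 and COL4A2 are transcribed away from each other from a shared stretch. They were chosen after their values were seen. Sequences are from RefSeq on GRCh38.p14, plus strand, 5′ to 3′. Capitals in COL5A1 (chr9:134641553-134641802, the 250 bases before the start) and COL15A1 (chr9:98943657-98943906, the 250 bases before the start) mark the core of the hypoxia response element, ACGTG or GCGTG on either strand. The COL15A1 stretch also overlaps the antisense gene COL15A1-AS1. Capitals in the 126 bases between the COL4A1 and COL4A2 starts (chr13:110307158-110307283) mark CCAAT, and this stretch holds no hypoxia response core.
COL5A1: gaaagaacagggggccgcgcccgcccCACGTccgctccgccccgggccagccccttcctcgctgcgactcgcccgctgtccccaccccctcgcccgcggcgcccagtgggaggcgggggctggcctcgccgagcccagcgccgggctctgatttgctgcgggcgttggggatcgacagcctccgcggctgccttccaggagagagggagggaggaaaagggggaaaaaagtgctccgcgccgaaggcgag
COL15A1: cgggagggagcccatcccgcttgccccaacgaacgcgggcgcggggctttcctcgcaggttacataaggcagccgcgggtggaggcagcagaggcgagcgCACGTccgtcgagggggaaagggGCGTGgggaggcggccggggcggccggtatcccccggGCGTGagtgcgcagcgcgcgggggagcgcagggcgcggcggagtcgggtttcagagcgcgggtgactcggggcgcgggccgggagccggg
COL4A1-COL4A2: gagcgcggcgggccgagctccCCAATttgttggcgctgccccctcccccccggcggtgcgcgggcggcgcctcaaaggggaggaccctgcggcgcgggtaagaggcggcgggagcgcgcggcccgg

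The COL5A1 stretch had 1 match and the COL15A1 stretch had 3, and all 3 stretches were rich in G and C (74.0%, 76.8% and 80.2%). A 300-base window, from 250 bases before to 50 after a start, was at hand for 23 of the 32 genes, with 34 windows in all because some genes have several starts. The hypoxia response core lay in 14 of these 34 windows, against 48.4% of 35116 windows of all genes. Counted by gene, it was in 12 of 23, against 52.4% of 27305 genes. Of the 13 collagen genes with a called probe set 8 had a window, and COL1A1, COL3A1, COL6A1, COL9A3 and COL14A1 had none. Among these 8 the core was found for 7 (COL5A1, COL8A2, COL9A1, COL11A2, COL13A1, COL15A1 and COL16A1, and not COL4A6). Among the other collagen genes it was found for 5 of 15 (COL4A2, COL4A3, COL9A2, COL18A1 and COL21A1). So short a motif is in about as many promoters of all genes as it is missing from, and a match is a description of the letters only. CCAAT was in 11 of the 34 collagen windows and 34.6% of all windows, and GGGCGG, the letters bound by SP1, was in 19 of 34 and 45.0%.

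Levels are RMA values on the log2 scale as deposited, and a difference of 1 is a doubling. Array medians over all probe sets ran from 6.69 to 6.72, and replicate arrays correlated over all probe sets at 0.997 to 0.999. The 12 h arrays were the least alike, at 0.9970, and the first of them correlated more closely with the second 6 h array, at 0.9979. The label calls the cells muscle fibroblasts. Of 7 rhabdomyosarcoma and myoblast markers 5 were bright, with MYOD1 at 11.99, FGFR4 at 11.47 and MYOG at 10.07. Of 8 fibroblast markers 6 were dim, among them DCN at 5.21, FAP at 4.47 and POSTN at 3.66. The fibroblast markers VIM at 13.59 and FBLN1 at 7.56 were not dim. In the myoblast list MYOG was 0.31 higher at 24 h and the dim MYF5 0.35 higher at 12 h, and CDH15 had a change of -0.33 at 24 h, all called by limma. The mean of the fibroblast list lay between 6.67 and 6.78 on every array and none of its 8 genes was called at any time. Dim endothelial, leukocyte, epithelial and chondrocyte markers made up 4 of 5, 4 of 4, 4 of 5 and 3 of 4 measured. The chondrocyte marker that was not dim was SOX9, at 10.66. In these lists TEK, an endothelial receptor, was called at 6 and 24 h (0.31 and 0.37 higher) and EPCAM, an epithelial adhesion protein, at 24 h (0.41 higher), and their part in the collagen values was not tested. RNA added to the samples as a labelling control (24 poly-A spike probe sets) averaged 0.47, 0.43 and 0.65 higher at 6, 12 and 24 h than at 0 h, and its part in the collagen values was not tested. In bulk RNA, more cells of a kind and more RNA per cell cannot be told apart.

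A probe set is called dim here when its mean over the 8 arrays is below 6.70, the median of all probe sets. Brightness depends on the probes as well as on the transcript, so it does not rank genes by abundance. Of the 73 collagen probe sets 48 were dim, and 17 of the 32 genes had dim probe sets only. The fibrillar class had 13 of 23 above the line, the basement membrane class 4 of 16 and the other class 8 of 34. Fibrillar genes seen by dim probe sets alone were COL1A2, COL5A3 and COL11A1. In type IV these were COL4A3, COL4A4, COL4A5 and COL4A6. In the other class they were COL6A2, COL6A3, COL7A1, COL8A1, COL8A2, COL9A2, COL9A3, COL10A1, COL13A1 and COL19A1. Nearest to the line were COL9A1 at 6.71 and COL18A1 at 6.74 above it and COL7A1 at 6.63 below it. The mean takes in the hypoxic arrays, so a rise in hypoxia helps a probe set to lie above the line. At 0 h COL9A1 averaged 6.44 and COL18A1 209082_s_at 6.62, both below it.

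Probe sets of one gene could differ widely in level. The 4 COL3A1 probe sets had means from 3.53 to 10.85, the 3 of COL14A1 from 4.74 to 10.44, and the 8 of COL6A1 from 4.10 to 7.83. These 3 genes are therefore described by the probe sets above the line, and the dim ones are counted. COL4A3, a chain of specialised basement membranes such as that of the kidney filter, was read by 7 probe sets, all dim, with means from 3.29 to 4.57.

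**Figure D1:**
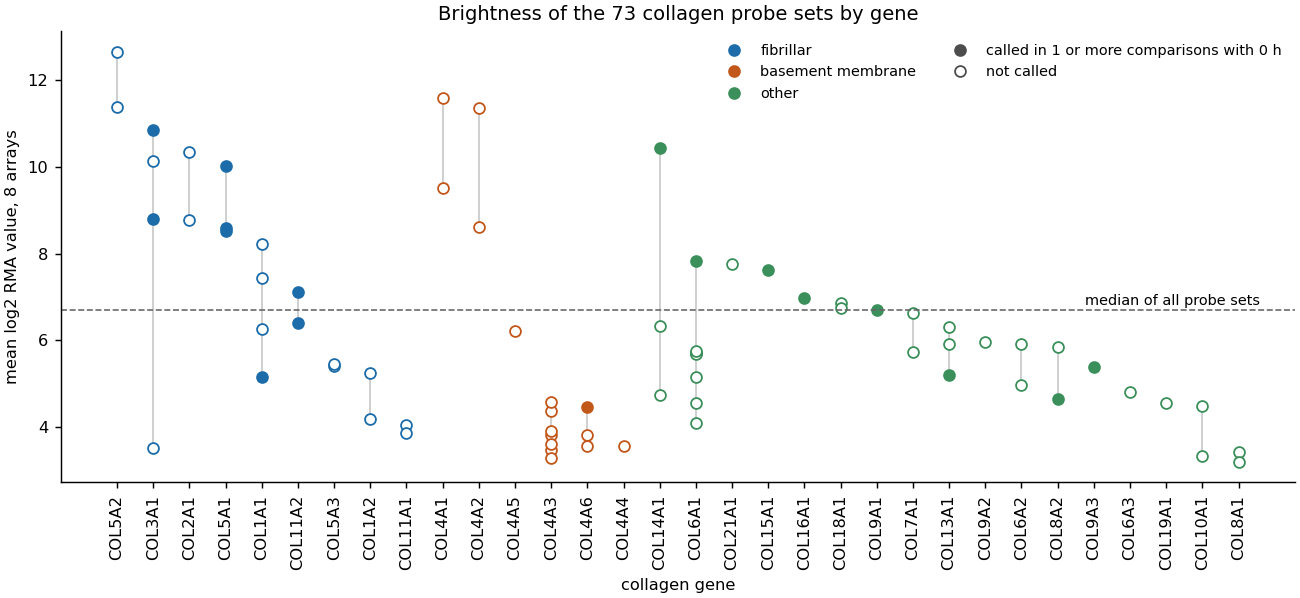
Mean log2 level over the 8 arrays (vertical axis) of each of the 73 collagen probe sets, by gene (horizontal axis) and class. The dashed line is the median of all probe sets, 6.70, and filled points are the 17 probe sets called in at least 1 comparison with 0 h, of which 6 lie below the line.

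Over the time course, collagen probe sets that passed the test were all higher in hypoxia than at 0 h. At 6 h 4 of 73 were higher (5.48%), against 1.85% of all probe sets. At 12 h 10 were higher (13.7%), against 6.36%, and at 24 h 12 were higher (16.4%), against 6.86%. None was lower, against 0.855%, 9.85% and 7.8% of all probe sets, and the same 0 held after further quantile normalization, after centring the arrays on their medians and when the variance was allowed to depend on brightness. The test was limma's moderated test on all 8 arrays, two-sided, with Benjamini-Hochberg adjustment over all 22215 probe sets and a call at an adjusted p under 0.05. The 3 comparisons share the 0 h arrays. Leaving out any single 0 h or 6 h array left 0 calls at 6 h. At 12 h, 3 calls were left without either 0 h array or without the second 12 h array, 5 were left when the 0 and 12 h arrays were fitted alone, and at 24 h 7 were left without the second 0 h array. In either direction, the shares called over all probe sets were 2.7%, 16.2% and 14.7%.

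Probe sets above the brightness line gave 4, 8 and 8 of the calls, out of 25. That line uses the hypoxic arrays as well, and COL9A1, among these calls at 12 and 24 h, averaged 6.44 at 0 h, below it. Among all probe sets above the line 3.31%, 9.03% and 11.2% were higher. The median change of these 25 collagen probe sets was 0.16, 0.15 and 0.15 at 6, 12 and 24 h, beside -0.01, -0.06 and -0.03 over all probe sets above the line. Estimates above 0 made up 21, 20 and 21 of the 25, or 84%, 80% and 84%, beside 46.3%, 38.1% and 44.4% over all above the line. Most of these changes were therefore small, with a few larger ones named below. Higher in at least 1 of the 3 comparisons were 17 of the 73 collagen probe sets, against 9.28% of all probe sets. They belonged to 13 of the 32 genes, against 11.7% of all 11963 genes counted the same way. A gene with more probe sets has more chances to be counted, and collagen genes had 2.28 on average against 1.59 for all genes. Of them 2 passed at every time, 5 at a pair of times and 10 at a single time.

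**Figure D2:**
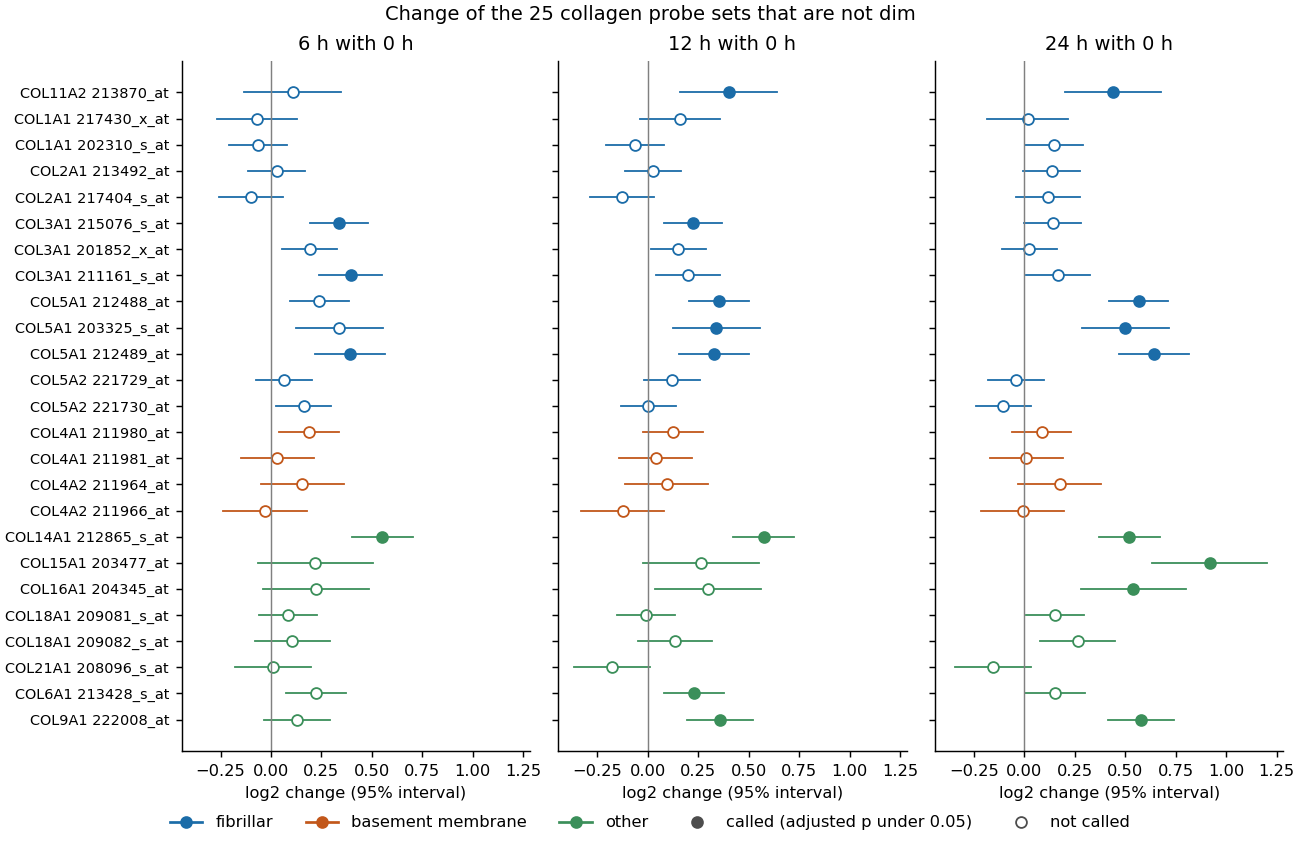
Log2 change from 0 h with its 95% interval (horizontal axis) at 6, 12 and 24 h for the 25 collagen probe sets that are not dim, with filled points where the adjusted p is under 0.05. Changes of COL5A1 lay to the right of 0 for all 3 probe sets at each time, and both COL5A2 probe sets had intervals that held 0 at 24 h.

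Among the fibrillar collagens COL5A1 and COL3A1 rose, while COL5A2, COL2A1 and the brighter probe sets of COL1A1 had changes from 0 h of at most 0.16 in size. In the class, 3, 6 and 5 of 23 probe sets were higher at 6, 12 and 24 h (13%, 26.1% and 21.7%). Over all probe sets 1.85%, 6.36% and 6.86% were higher. The class median change was 0.07, 0.16 and 0.14. Genes with any probe set called higher at any time numbered 4 of 9, against 11.7% of all genes: COL1A1, COL3A1, COL5A1 and COL11A2.

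COL5A1 encodes the alpha 1 chain of type V collagen, which joins type I chains in the core of thin fibrils and controls their diameter. Its probe set 212488_at read 9.72 and 9.75 at 0 h, 9.95 and 10.00 at 6 h, 10.08 and 10.09 at 12 h, and 10.24 and 10.36 at 24 h. Each time lay above the one before it with no overlap between arrays. Changes from 0 h were 0.24 ± 0.06 (SE, limma adjusted p = 0.103), 0.35 ± 0.06 (adjusted p = 0.0106) and 0.57 ± 0.06 (adjusted p = 0.00156), and the last is a 1.48-fold rise.

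The 2 further COL5A1 probe sets gave a like picture with more scatter. 212489_at read 8.21 and 8.15 at 0 h, 8.62 and 8.52 at 6 h, 8.53 and 8.49 at 12 h, and 8.73 and 8.90 at 24 h. All hypoxic arrays lay above both 0 h arrays, with changes of 0.39 ± 0.07, 0.33 ± 0.07 and 0.64 ± 0.07 (limma adjusted p = 0.0419, 0.0248 and 0.0019). 203325_s_at read 8.16 and 8.42 at 0 h and between 8.55 and 8.80 on the 6 hypoxic arrays, again without overlap. It was 0.34 higher at 12 h (limma adjusted p = 0.0457) and 0.50 ± 0.09 higher at 24 h (adjusted p = 0.0124). The 24 h calls of 212488_at and 212489_at held under all 10 alternatives tried for each, with adjusted p up to 0.0225 and 0.0252. That of 203325_s_at was lost without the first 0 h array (adjusted p = 0.075) or either 24 h array (0.061 and 0.0572). At 12 h the calls of 212488_at and 212489_at were lost without either 0 h array, that of 212489_at also without either 12 h array, and that of 203325_s_at without the first 0 h or the second 12 h array, with adjusted p reaching 0.0813, 0.149 and 0.233. With only the compared times fitted, 203325_s_at at 12 h was not called (adjusted p = 0.129). The 6 h call of 212489_at was lost without any single 0 h or 6 h array, reaching 0.28.

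COL5A2, the partner chain of COL5A1 in the type V molecule, was bright and moved little from its 0 h level. Its probe set 221729_at read 12.63 and 12.59 at 0 h, 12.70 and 12.65 at 6 h, 12.74 and 12.72 at 12 h, and 12.61 and 12.53 at 24 h. The 24 h arrays overlapped the 0 h arrays. The change at 24 h was -0.04 with a 95% interval from -0.18 to 0.10 (limma adjusted p = 0.706). The other probe set, 221730_at, read 11.39 and 11.32 at 0 h and 11.48 and 11.55 at 6 h. At 12 h it read 11.35 and 11.37, and at 24 h 11.251 and 11.245, below both 0 h arrays. From 6 to 24 h it changed by -0.27, which was not called (limma adjusted p = 0.0775). Its change from 0 h at 24 h was -0.10 with an interval from -0.24 to 0.03. The upper ends of both intervals lie below the lower ends of the 24 h intervals of all 3 COL5A1 probe sets, 0.28, 0.42 and 0.47. A test of the difference between the chains was not run.

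COL3A1, the single chain of type III collagen, which is common in elastic and healing tissue, was highest at 6 h. Its probe set 215076_s_at read 10.69 and 10.66 at 0 h, 10.97 and 11.06 at 6 h, 10.93 and 10.87 at 12 h, and 10.83 and 10.80 at 24 h. All hypoxic arrays were above both 0 h arrays, and the 6 h arrays were above those of the later times. Its changes were 0.34 (limma adjusted p = 0.0364, 1.26-fold), 0.22 (adjusted p = 0.0465) and 0.14 (adjusted p = 0.186). For 211161_s_at the arrays read 8.67 and 8.53 at 0 h, 8.99 and 8.99 at 6 h, 8.84 and 8.76 at 12 h, and 8.77 and 8.76 at 24 h. It was 0.39 higher at 6 h (limma adjusted p = 0.0296, 1.31-fold), and not called at 12 h (0.20) or 24 h (0.17). For 201852_x_at the changes were 0.19, 0.15 and 0.02, none called, and the 215077_at probe set was dim at 3.53. The difference between 6 h and 24 h was not called for any COL3A1 probe set. Both 6 h calls were lost without any single 0 h or 6 h array, with adjusted p reaching 0.249 and 0.222, and the 12 h call of 215076_s_at without any single 0 h or 12 h array, reaching 0.218, and when only the compared times were fitted (0.0713).

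COL1A1, the main chain of type I collagen, had 4 probe sets that differed. The brightest, 217430_x_at, read 8.26 and 8.13 at 0 h and 8.15 and 8.27 at 24 h, with a change of 0.02 (95% interval -0.18 to 0.21). For 202310_s_at the change at 24 h was 0.15 (limma adjusted p = 0.165). The dim 202312_s_at had changes of -0.03, 0.21 and 0.15 at 6, 12 and 24 h, none called. The dim 202311_s_at read 5.06 and 4.92 at 0 h, 5.27 and 5.29 at 6 h, 4.97 and 5.00 at 12 h, and 5.47 and 5.35 at 24 h. It was 0.42 ± 0.07 higher at 24 h (limma adjusted p = 0.00832), a call lost without the second 0 h array (0.0741), and level with 0 h at 12 h. Since the probe sets disagree and the only one called is dim, the arrays give no single direction for COL1A1. COL1A2, its partner chain, had dim probe sets only and no call.

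COL2A1, the chain of cartilage collagen, was read at 10.33 on average by 213492_at. Its change at 24 h was 0.14 (limma adjusted p = 0.192, 95% interval -0.01 to 0.28). Type XI is the minor fibril chain that partners type II. COL11A2 213870_at read 7.05 and 6.72 at 0 h, 6.96 and 7.02 at 6 h, 7.30 and 7.27 at 12 h, and 7.29 and 7.35 at 24 h. The 0 h arrays lay far apart, and all 4 arrays of 12 and 24 h were above both. It was 0.40 ± 0.10 higher at 12 h (limma adjusted p = 0.0369) and 0.44 ± 0.10 higher at 24 h (adjusted p = 0.0285). Without the second 0 h array, the lower one, these were 0.23 (adjusted p = 0.16) and 0.27 (0.121). The calls were also lost without either array of the hypoxic time, with adjusted p from 0.073 to 0.11, and when only the compared times were fitted (0.115 at 12 h and 0.0501 at 24 h). The dim 216993_s_at was called at 12 h (0.42, limma adjusted p = 0.0138), a call lost without either 0 h array or the second 12 h array (up to 0.0886), and was 0.13 above 0 h at 24 h.

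**Figure D3:**
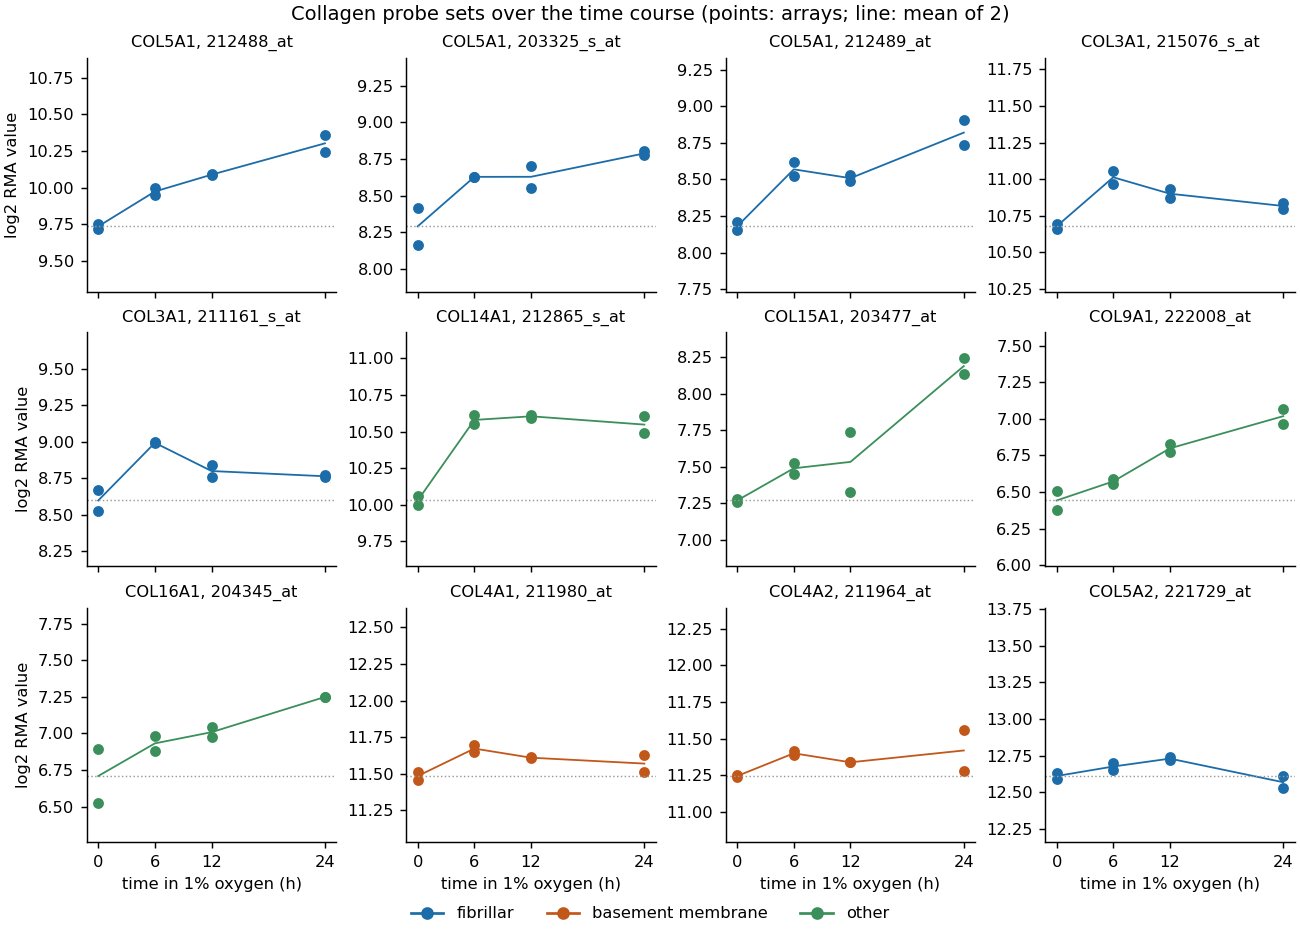
Log2 level (vertical axis) against hours at 1% oxygen for 12 collagen probe sets, with points for single arrays, a line through the means of 2 arrays and a dotted line at the 0 h mean, and with 1.6 log2 units in every panel. COL5A1 212488_at and COL9A1 lay higher at each time than at the time before, COL3A1 was highest at 6 h, COL14A1 had its rise by 6 h, COL15A1 was highest at 24 h, and COL4A1, COL4A2 and COL5A2 stayed near their 0 h level.

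In the basement membrane class none of the 4 probe sets above the line was called, and the class gave 1 call in all. Its counts were 0, 1 and 0 of 16 at 6, 12 and 24 h. The 12 h share, 6.25%, was near that of all probe sets. Higher over all probe sets were 1.85%, 6.36% and 6.86%. The class median changes were -0.02, 0.10 and 0.05. COL4A1 and COL4A2 make the common type IV molecule, and their starts lie 127 bases apart on chromosome 13, as in the sequence above.

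COL4A1 211980_at read 11.46 and 11.51 at 0 h, 11.69 and 11.65 at 6 h, 11.61 and 11.61 at 12 h, and 11.63 and 11.51 at 24 h. The 6 and 12 h arrays lay above those of 0 h, and a 24 h array met the higher 0 h one. Its change was 0.19 ± 0.06 at 6 h (limma adjusted p = 0.182, 95% interval 0.04 to 0.34) and 0.09 at 24 h (interval -0.06 to 0.23). It passed at 6 h only under 2 of 6 alternatives. COL4A2 211964_at read 11.25 and 11.24 at 0 h, 11.41 and 11.39 at 6 h, 11.34 and 11.34 at 12 h, and 11.28 and 11.56 at 24 h. Its 6 and 12 h arrays were above 0 h as well, and the 24 h arrays were far apart. At 6 h its change was 0.16 (adjusted p = 0.426) and at 24 h 0.17 (interval -0.03 to 0.38). The dimmer of the probe sets above the line, 211981_at for COL4A1 and 211966_at for COL4A2, had 24 h changes of 0.01 (interval -0.17 to 0.19) and -0.01 (interval -0.22 to 0.20). A rise of COL4A1 or COL4A2 at 24 h above 0.38 on the log2 scale lies outside these intervals.

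The chains of specialised basement membranes were all dim. COL4A5 read 5.75 and 6.14 at 0 h and 6.42 and 6.41 at 24 h, a change of 0.47 ± 0.18 that was not called (limma adjusted p = 0.136). COL4A6 213992_at read 4.43 and 4.39 at 0 h, 4.37 and 4.40 at 6 h, 4.81 and 4.68 at 12 h, and 4.50 and 4.23 at 24 h. It was called at 12 h (0.34, adjusted p = 0.0472) and stood at -0.05 at 24 h. This call was lost after further quantile normalization (adjusted p = 0.0776), when only the compared times were fitted (0.0512), and without any single 0 h or 12 h array (up to 0.204). The other 2 COL4A6 probe sets, the 7 of COL4A3 and the 1 of COL4A4 had no call.

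In the other class 1, 3 and 7 of 34 probe sets were higher at 6, 12 and 24 h (2.94%, 8.82% and 20.6%). Over all probe sets 1.85%, 6.36% and 6.86% were higher. Of its 17 genes 8 had any probe set called higher at any time, against 11.7% of all genes. The changes at 24 h had a median of 0.39 over the 8 probe sets above the brightness line and 0.13 over the class as a whole. The line is set on means that include the 24 h arrays, so it favours probe sets that rose by then. The difference between these medians is therefore no result about brightness. Of the 8 above the line, 4 read fibril-associated collagens, 3 the multiplexins and 1 a beaded filament chain.

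COL14A1 codes for type XIV, a fibril-associated collagen on the surface of type I fibrils. Its probe set 212865_s_at read 10.06 and 10.00 at 0 h, 10.55 and 10.61 at 6 h, 10.59 and 10.62 at 12 h, and 10.61 and 10.49 at 24 h. The 6 hypoxic arrays lay close together and well above both 0 h arrays, at every time alike. Changes were 0.55 ± 0.07, 0.58 ± 0.07 and 0.52 ± 0.07 (limma adjusted p = 0.00679, 0.00218 and 0.00264), or 1.46-fold, 1.49-fold and 1.43-fold. The 12 and 24 h calls held under all 10 alternatives each, and the 6 h call was lost without any single 0 h or 6 h array (adjusted p up to 0.0859). The other 2 COL14A1 probe sets were dim, with changes of 0.15 at most and no call.

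COL15A1 carries the largest change of any collagen probe set. Type XV is a multiplexin found at the outer face of muscle and vessel basement membranes, with a C-terminal fragment that is known to inhibit vessel growth. It read 7.26 and 7.28 at 0 h, 7.53 and 7.45 at 6 h, 7.74 and 7.33 at 12 h, and 8.24 and 8.13 at 24 h. The 12 h arrays were far apart, and both 24 h arrays lay above all others. Changes were 0.22 (limma adjusted p = 0.418), 0.26 (adjusted p = 0.187) and 0.92 ± 0.12 (adjusted p = 0.00336), a 1.89-fold rise by 24 h. This call held under all 10 alternatives, with limma adjusted p up to 0.0342.

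COL18A1, the other multiplexin, is the source of endostatin. Its 24 h changes were 0.26 for 209082_s_at (limma adjusted p = 0.0661) and 0.15 for 209081_s_at (adjusted p = 0.154), neither called. At 24 h the COL15A1 interval, 0.63 to 1.20, lies above both COL18A1 intervals, 0.08 to 0.45 and 0.01 to 0.30, and the difference between the genes was not tested.

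COL9A1 and COL16A1 are further fibril-associated chains, the first of a collagen that coats type II fibrils. COL9A1 read 6.37 and 6.51 at 0 h, 6.59 and 6.56 at 6 h, 6.77 and 6.82 at 12 h, and 6.97 and 7.07 at 24 h. Like COL5A1 212488_at, its levels lay higher at each time than at the time before, without overlap. Changes were 0.13, 0.36 ± 0.07 (limma adjusted p = 0.0152) and 0.58 ± 0.07 (adjusted p = 0.00235). The 24 h call held under all 10 alternatives and the 12 h call was lost without the first 0 h or the second 12 h array (up to 0.112). COL16A1 read 6.89 and 6.52 at 0 h, 6.98 and 6.88 at 6 h, 7.04 and 6.97 at 12 h, and 7.25 and 7.25 at 24 h. The higher 0 h array overlapped the 6 h arrays, and the 24 h arrays lay above all others. It was 0.54 ± 0.11 higher at 24 h (limma adjusted p = 0.0187), and 0.36 higher without the second 0 h array (adjusted p = 0.0729). That call was also lost without either 24 h array (0.0905 and 0.0752). COL21A1, of the same kind, read 7.84 and 7.85 at 0 h and 7.78 and 7.60 at 24 h, a change of -0.15 that was not called.

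Type VI collagen forms beaded filaments around muscle cells. Of the 8 COL6A1 probe sets only 213428_s_at was above the line, and it read 7.68 and 7.67 at 0 h, 7.84 and 7.96 at 6 h, 7.87 and 7.95 at 12 h, and 7.83 and 7.83 at 24 h. All hypoxic arrays were above both 0 h arrays. It was called at 12 h (0.23, limma adjusted p = 0.0485) and not at 6 h (0.22) or 24 h (0.15). Leaving out any single 0 h or 12 h array ended that call, with adjusted p reaching 0.207, as did fitting only the compared times (0.07). The 7 dim COL6A1 probe sets and those of COL6A2 and COL6A3 had no call.

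In the other class the dim members with a call at 24 h were COL13A1, COL9A3 and COL8A2. COL13A1 is a transmembrane collagen of cell adhesions and the nerve-muscle junction. Its 211343_s_at read 5.03 and 4.89 at 0 h, 5.12 and 5.08 at 6 h, 5.11 and 5.19 at 12 h, and 5.71 and 5.47 at 24 h. It was 0.63 ± 0.09 higher at 24 h (limma adjusted p = 0.00473), and the call held under all 9 alternatives. The other COL13A1 probe sets, also dim, had changes of 0.11 and 0.12 and no call. COL9A2, of type IX like COL9A1, was dim and not called, with changes of -0.26, -0.04 and -0.29 at 6, 12 and 24 h. Of 2 COL8A2 probe sets, both dim, the brighter 52651_at changed by 0.01 at 24 h and was not called. COL9A3, a partner of COL9A1, was 0.50 higher at 24 h (limma adjusted p = 0.0245). COL8A2 221900_at, for a chain of the short-chain network collagen of the cornea and vessel wall, was 0.42 higher (limma adjusted p = 0.0158). Both of these were lost without either 0 h array and without 1 of the 24 h arrays, the first for COL9A3 and the second for COL8A2, with adjusted p up to 0.152 and 0.11.

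**Figure D4:**
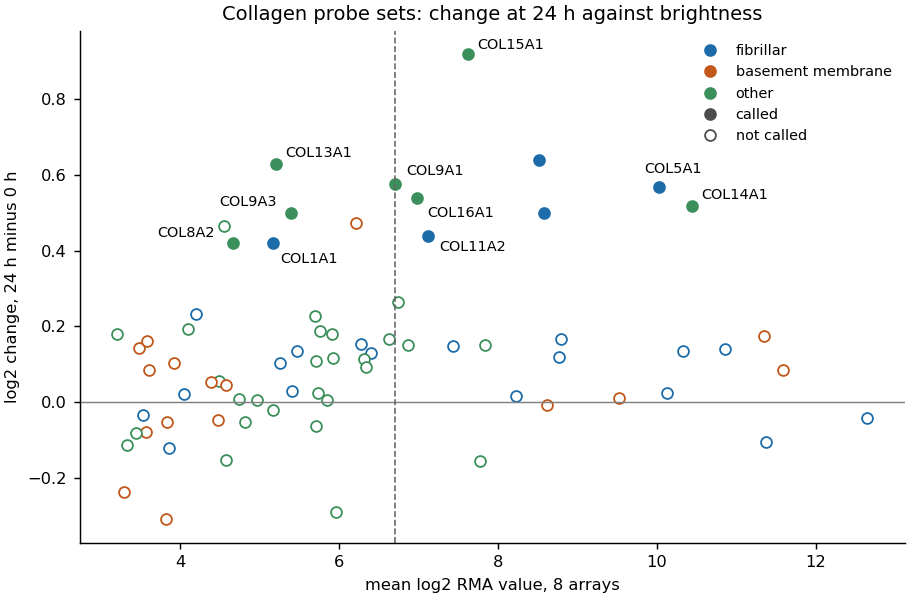
Log2 change from 0 h to 24 h (vertical axis) against the mean log2 level over 8 arrays (horizontal axis) for the 73 collagen probe sets, by class, with a dashed line at the median of all probe sets, 6.70. COL15A1 stands highest at 0.92, and the brightest members, COL5A2, COL4A1 and COL4A2, lie between -0.10 and 0.17.

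Between hypoxic times few collagen probe sets were called. From 6 to 24 h 2 of 73 were higher, against 1.05% of all probe sets: COL15A1 (0.70, limma adjusted p = 0.0445) and COL9A1 (0.45, adjusted p = 0.0316). Both calls were lost without any single 6 or 24 h array, with adjusted p up to 0.236 and 0.204, and that of COL9A1 also when only the compared times were fitted (0.0529). From 6 to 12 h limma called 0 of 73, against 0.117% of all probe sets, and from 12 to 24 h also 0 of 73, against 0.144%. An unadjusted limma p under 0.05 was reached by 15 of 73 from 6 to 12 h, beside 4647 of all 22215 probe sets. From 12 to 24 h it was reached by 16, beside 3653, and from 6 to 24 h by 19, beside 3765. When the variance was allowed to depend on brightness, the calls from 6 to 12 h and from 12 to 24 h were 3 and 5. A moderated F-test over the 3 comparisons with 0 h called 12 of 73 (16.4%), against 12.6% of all probe sets, and without the second 0 h array it called 1.

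The genes that process collagen were taken from 5 lists, with the brightest probe set standing for each gene, and over all 11963 genes so represented 1.95%, 6.55% and 7.86% were higher and 0.878%, 10.3% and 8.02% lower at 6, 12 and 24 h. In chain assembly and folding 16 of 18 genes were measured, and 5, 5 and 5 were higher and 0, 1 and 1 lower. The largest changes belonged to PLOD2, a lysyl hydroxylase whose product sets the kind of cross-link, with 1.72, 1.81 and 1.67, and to P4HA1, the catalytic subunit of prolyl 4-hydroxylase, with 1.45, 1.80 and 1.58. PLOD1 rose by 0.74, 0.99 and 0.95 and P4HA2 by 0.32, 0.56 and 0.37. All of these passed at each time, with limma adjusted p of at most 0.032. SERPINH1, the collagen chaperone HSP47, was not called, with changes of 0.00, -0.07 and -0.14, and P3H2, a prolyl 3-hydroxylase, fell by 0.28 at 24 h (limma adjusted p = 0.0319). The changes of the hydroxylases PLOD2 and P4HA1 exceeded that of every collagen probe set at each time.

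For export, trimming and cross-linking 15 of 18 genes were measured, and 0, 3 and 3 were higher and 0, 2 and 2 lower. LOX, the lysyl oxidase that starts cross-links outside the cell, was 0.71 higher at 12 h and 0.86 at 24 h (limma adjusted p = 0.00453 and 0.00187). PCOLCE, which speeds removal of the C-terminal propeptide, was 0.41 and 0.63 higher, and LOXL2, a related oxidase, 0.32 and 0.33. BMP1, the protease that removes that propeptide, was 0.26 lower at 24 h on the log2 scale, a change of -0.26 (limma adjusted p = 0.0275), and MIA3, an export receptor for large procollagens, changed by -0.31 and -0.34 at 12 and 24 h. Of 8 fibril partners 1 was higher, at 24 h: FMOD, a small proteoglycan of fibrils (0.34, limma adjusted p = 0.0179). Of 5 collagen receptors measured none was called by limma at any time, with ITGB1 at 12.38 and DDR2 at 7.62 the brightest. Among 6 collagenases MMP2 was higher at 12 and 24 h (0.34 and 0.33) and MMP14 lower at 24 h (-0.30, limma adjusted p = 0.0123).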

How the data were processed

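RNA of SJRH30 cells at 0, 6, 12 and 24 h of hypoxia was measured on 8 arrays, 2 per time. Values on the log2 scale were deposited by the authors; RMA is named in the submitters' processing notes, and its software and version are not given in the sources. RMA in its usual form makes array distributions equal, so changes are relative to the other transcripts of the array. Of 22277 probe sets 62 controls were left out. Names came from the platform annotation of the deposited table, in which 19064 probe sets had 1 symbol, 1043 several and 2108 none listed. All 32 collagen symbols matched RefSeq by Entrez identifier. Members with a call, the brightest genes of each class and further probe sets of both were named, and dim genes were counted.

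Means of the 4 times were fitted with limma 3.58.1 in R 4.3.3 (lmFit, eBayes; 4 residual and 3.70 prior degrees of freedom), without a filter, and the script was tested on simulated data. The number of arrays limits precision, and depth has no meaning for arrays. Alternatives were quantile normalization, median centring, a variance trend, filters on dim probe sets, 1 probe set per gene, a replicate block, fits of the compared times alone, and leaving out each array. Replicate numbers did not pair arrays across times. The members and lists were chosen with earlier results of these data known.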

Additional observations from a re-analysis of the deposited data

Results flagged for a closer look

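Control probe sets outside the collagen comparisons differed between 0 h and hypoxia. The 24 poly-A spike probe sets averaged 0.47 higher on the log2 scale at 6 h than at 0 h, 0.43 higher at 12 h and 0.65 higher at 24 h. Both arrays at each hypoxic time lay above both arrays at 0 h, with 8.32 and 8.36 at 0 h and 8.96 and 9.01 at 24 h. The 18 hybridisation control probe sets averaged 0.25, 0.19 and 0.19 higher at 6, 12 and 24 h. These values were above the level of the 0 h arrays in data that the collagen comparisons do not use, and their part in the collagen values was not tested.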

How the results depend on the processing

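None of the 28 calls of named probe sets changed sign under the alternatives run. Of 67 results without a call 3 did, all with changes near 0: COL1A1 202311_s_at and COL18A1 209081_s_at at 12 h and COL4A2 211966_at at 24 h. Fitted with the compared times alone, 7 calls were lost. At 6 h, where 4 probe sets were called, 2 were called with 1 probe set per gene, 9 with a variance that may depend on brightness (a trend) and 9 without the dimmer 50% of probe sets. At 12 h 10 became 5 when the compared times were fitted alone, and at 24 h 12 became 7 with 1 probe set per gene. For 12 h with 6 h, 0 became 3 with the trend and 1 without the dimmer 50%. For 24 h with 12 h, 0 became 5 with the trend, 1 without the dimmest 25%, 4 without the dimmer 50% and 1 after quantile normalization. For 24 h with 6 h, 2 became 10, 5 and 10 with the trend and these filters and 1 with the compared times alone. The F-test's 12 became 6 with 1 probe set per gene and 21 with the trend, and it has no fit of compared times alone. Leaving out each array gave 0 to 4 calls at 6 h, 3 to 9 at 12 h, 7 to 12 at 24 h, 0 to 1 for 12 h with 6 h, 0 to 2 for 24 h with 12 h, 0 to 3 for 24 h with 6 h, and 1 to 14 for the F-test. Filters, 1 probe set per gene, compared times alone and left-out arrays use fewer probe sets or arrays. The causes of the differences with the trend and with quantile normalization were not tested.

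Over probe sets that are not dim, the median change became 0.16 from 0.07 for the fibrillar class at 6 h and 0.39 from 0.13 for the other class at 24 h. The brightness line uses the hypoxic arrays as well, so a rise helps a probe set to pass it. With 1 probe set per gene the median change of the basement membrane class at 6 h became 0.11 from -0.02.

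Replicate numbers did not pair arrays: the differences between replicates 1 and 2 correlated between times at -0.13 to 0.08. With the replicate number as a block, 2 probe sets were called at 6 h, 7 at 12 h, 12 at 24 h, 9 by the F-test and 0 between hypoxic times. The calls lost with it were COL5A1 212489_at and COL3A1 215076_s_at at 6 h, COL3A1 215076_s_at, COL6A1 213428_s_at and COL11A2 213870_at at 12 h, and COL15A1 and COL9A1 between 6 and 24 h. Of all calls at 12 h, 60.8% were lower as deposited and 52.4% after quantile normalization.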
